A study of Caenorhabditis elegans with 2 samples.

Results

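Small nucleolar RNA (snoRNA) genes were taken as all 346 genes of biotype snoRNA on the 5 autosomes and X in the Ensembl annotation of WBcel235, out of 46890 annotated genes on those chromosomes. The rule uses the annotation and no measured value, although the set was picked for description with earlier results of these data known. Of these genes 169 lay in an intron of a protein-coding gene, 124 lay outside protein-coding genes and 53 overlapped an exon. They were read against chromatin immunoprecipitation sequencing (ChIP-seq) of HIM-1, the SMC-1 subunit of cohesin, in whole Caenorhabditis elegans. The animals were hermaphrodite young adults of strain YL577, whose HIM-1 has a GFP-FLAG tag at its C terminus, collected 47 hours after synchronization from starved larvae. The labels' description gives an antibody to GFP, whereas their antibody field reads him-1. Both libraries, biological replicates 1 and 2, carry the tag and form 1 group, and a library of untagged animals or of input DNA was not analysed here.

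A snoRNA guides the chemical modification of other RNAs, mostly ribosomal RNA. C/D box snoRNAs direct ribose methylation and carry a C box near the 5′ end and a D box near the 3′ end, whereas H/ACA box snoRNAs direct pseudouridylation and end shortly after an ACA. Many snoRNAs are cut out of the introns of host genes, and others are transcribed from a promoter of their own. Cohesin encircles DNA, links sister chromatids and shapes chromatin loops.

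The sequences that the results turn on lie just before the genes. The first 4 below are among the 6 highest-signal snoRNA genes whose 120 upstream bases held both the A box letters TGGCNNAG and the B box letters GTTCNANNC on the sense strand. These are the letters of the internal promoter of tRNA genes, where the general factor TFIIIC binds. Each line gives 100 bases before the gene and its first 10 bases, 5′ to 3′ on the gene's strand, and capitals mark the A box, then the B box. The ce11 positions are chrII:5105222-5105331 (minus strand) for C04G6.12, chrV:11782892-11783001 (plus) for F55A11.10, chrV:11314158-11314267 (plus) for T03F7.8 and chrIV:7574022-7574131 (plus) for F32E10.10.
C04G6.12: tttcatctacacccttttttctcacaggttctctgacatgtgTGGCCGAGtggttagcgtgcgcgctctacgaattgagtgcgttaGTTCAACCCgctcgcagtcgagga
F55A11.10: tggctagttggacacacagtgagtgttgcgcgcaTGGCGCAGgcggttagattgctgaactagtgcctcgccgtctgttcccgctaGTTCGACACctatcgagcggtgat
T03F7.8: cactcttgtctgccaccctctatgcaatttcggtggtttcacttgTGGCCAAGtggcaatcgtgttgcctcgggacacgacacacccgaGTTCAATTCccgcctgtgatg
F32E10.10: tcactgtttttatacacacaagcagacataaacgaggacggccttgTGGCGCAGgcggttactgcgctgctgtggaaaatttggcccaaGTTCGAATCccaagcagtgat

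The next 4 are the highest-signal genes with another arrangement in the same 120 bases, here called the spaced pair: the letters CGNAACNC, then 6 bases of any kind, then TGTC. Capitals mark these letters. The positions are chrV:8500479-8500588 (plus) for ZK994.7, chrV:8349008-8349117 (plus) for C08D8.3, chrV:8228960-8229069 (minus) for C16D9.11 and chrII:11224082-11224191 (plus) for T06D8.11.
ZK994.7: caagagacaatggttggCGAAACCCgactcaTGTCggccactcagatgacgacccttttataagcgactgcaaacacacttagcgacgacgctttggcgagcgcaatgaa
C08D8.3: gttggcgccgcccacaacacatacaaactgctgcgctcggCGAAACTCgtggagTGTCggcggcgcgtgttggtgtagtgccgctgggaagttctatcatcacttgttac
C16D9.11: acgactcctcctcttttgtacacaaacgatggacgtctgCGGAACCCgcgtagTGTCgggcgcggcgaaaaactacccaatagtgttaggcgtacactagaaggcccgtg
T06D8.11: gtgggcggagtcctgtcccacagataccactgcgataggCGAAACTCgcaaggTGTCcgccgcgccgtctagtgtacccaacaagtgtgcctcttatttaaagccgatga

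The last 3 show the genes themselves with the 20 bases that follow. For the C/D-like C08D8.3 (chrV:8349108-8349207, plus, 80 bases of gene) and C51F7.3 (chrV:12303708-12303803, plus, 76 bases of gene) capitals mark the C box letters TGATGA, the D box letters CTGA and, in C51F7.3, the run of T after the gene. For the H/ACA-like K02C4.8 (chrII:8075509-8075663, plus, 135 bases of gene) they mark the ACA.
C08D8.3: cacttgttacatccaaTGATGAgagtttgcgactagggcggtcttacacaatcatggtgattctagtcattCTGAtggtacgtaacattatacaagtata
C51F7.3: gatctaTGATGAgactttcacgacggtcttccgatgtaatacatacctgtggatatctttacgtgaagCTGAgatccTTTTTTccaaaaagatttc
K02C4.8: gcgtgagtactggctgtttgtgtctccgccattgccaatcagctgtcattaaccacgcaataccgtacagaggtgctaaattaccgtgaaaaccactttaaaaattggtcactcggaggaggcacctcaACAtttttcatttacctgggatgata

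HIM-1-GFP summits lay at 1 in 4 snoRNA genes, and those summits were among the strongest of the data set. A gene was counted as carrying a summit where the summit of a peak lay within 250 bp of it, and its signal is the highest such summit's value from the authors' peak caller. In the optimal list, which holds the 2051 peaks that passed the authors' reproducibility threshold, 87 of 346 snoRNA genes (25.1%, exact 95% interval 20.7% to 30.1%) carried a summit. The same held for 5.99% of all genes and for 1.22% of genome tiles as long as the median snoRNA gene with its flanks. Among the strongest 2051 peaks of each replicate's own list, 24.3% of snoRNA genes carried a summit in replicate 1 and 24.9% in replicate 2 (24.6% ± 0.409, SD, n = 2), against 5.84% and 5.91% of all genes and 1.21% and 1.22% of tiles. The difference from the background was larger than the spread between the replicates.

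The longer lists, which include weak peaks, reached more snoRNA genes, but all genes gained by more. In the pooled list of 18314 peaks 131 snoRNA genes had a summit, and 25.8% of all genes and 10.4% of tiles did. Replicate 1's own list of 22720 peaks reached 138 snoRNA genes (29.9% of all genes, 12.8% of tiles), and replicate 2's list of 24220 peaks reached 135 (31% of all genes, 13.7% of tiles). A further 44 snoRNA genes had a pooled summit but none in the optimal list, and 185 had a summit in none of the 4 lists. Intervals here cover counting error over genes only, since the read depth is unknown, and the signal of whole animals cannot be divided among cell types or between more cells and more HIM-1 per cell.

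At the genes with a summit the signal was high. The median signal of the 87 genes was 170 (quartiles 129 and 205, range 62.1 to 436), where the median of the whole optimal list was 83.3. Of the 87 genes 79 lay above that median, and 34 had a summit among the 100 strongest. The median signal percentile within the list was 92.4, beside 74.1 for 419 of 612 tRNA genes (68.5%) and 74.7 for 51 of 129 snRNA genes (39.5%). A summit was thus less frequent at snoRNA genes than at tRNA genes, with intervals that do not overlap (20.7% to 30.1% and 64.6% to 72.1%), while the summits that were present ranked higher. That difference in rank between gene classes was not tested.

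**Figure D1:**
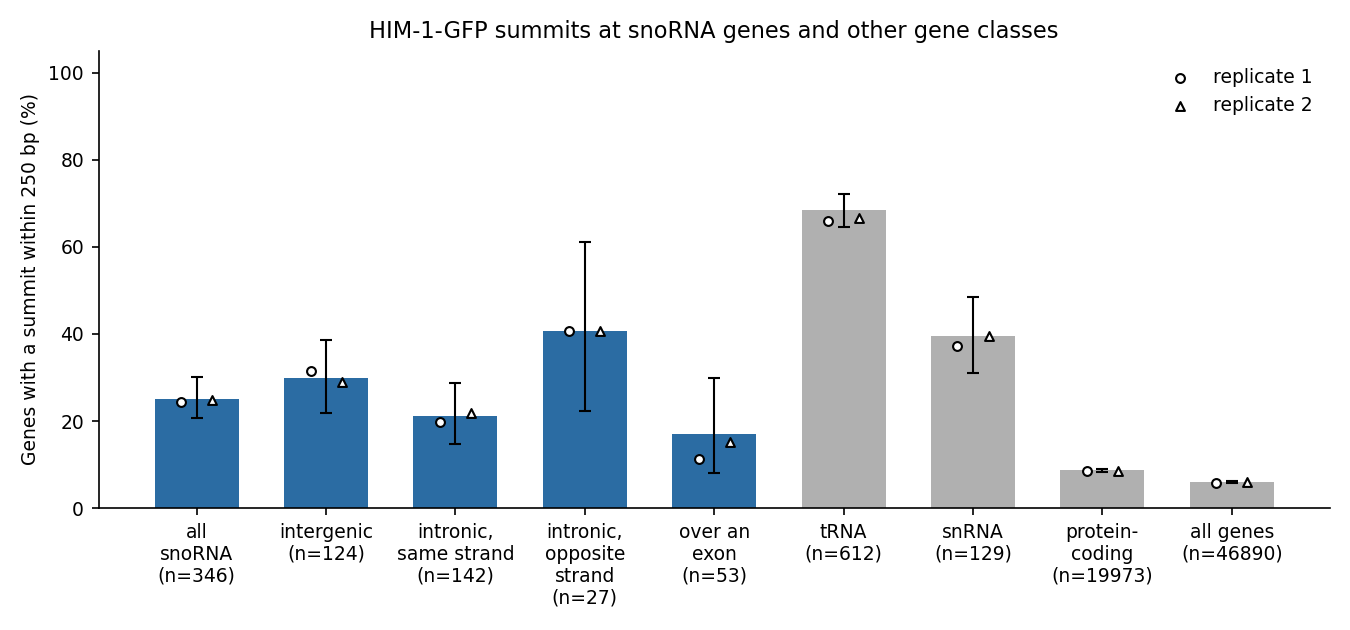
Share of genes (%) with a summit of the optimal list within 250 bp, for snoRNA genes by location (blue) and for other gene classes (grey). Bars are the optimal list with exact 95% intervals; circles and triangles are the strongest 2051 peaks of replicates 1 and 2, which give 24.3% and 24.9% for all snoRNA genes.

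ZK994.7 carried the strongest snoRNA summit. It is a gene of 67 bases in an intron of pxn-1, a peroxidasin gene, at chrV:8500579-8500645. Its optimal signal of 436 ranked 3 in the list, with 212 (rank 2) in replicate 1 and 222 (rank 3) in replicate 2. The signals of the replicates' lists are on scales of their own, so the ranks are what can be compared, and here they nearly coincide.

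Other genes inside a host and on its strand followed. C08D8.3 in C08D8.1 had an optimal signal of 297, rank 19 in replicate 1 and 13 in replicate 2. C51F7.3 and its neighbour C51F7.4 in frm-7, a FERM domain gene, shared 1 summit of 272 that lay 64 bp before the former, which is intronic, and 45 bp inside the latter, which overlaps an exon, so the 87 genes rest on 86 summits. C16D9.11 in rol-3 (259, chrV:8228900-8228969) ranked 27 and 30 in the replicates, and T06D8.11 in plpr-1 (238, chrII:11224182-11224258) ranked 33 and 42. All of these ranks were 42 or better in lists of 22720 and 24220 peaks.

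Intergenic genes reached the same level. K02C4.8, an H/ACA-like gene at chrII:8075509-8075643, had 264 in the optimal list and ranks of 23 and 25. ZK265.10 (261; ranks 21 and 43), F47G4.9 (233; ranks 70 and 41), H09I01.2 (231; ranks 26 and 74) and T19B4.8 (209; ranks 170 and 49) were the other 4 highest intergenic genes. Each of these 4 is between 62 and 74 bases long.

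The optimal list was derived from these same replicates and thresholded on reproducibility. Likeness between them at the 87 genes follows in part from that choice and is given as a description. Of the 87 genes 80 (92.0%) were also among the strongest 2051 of both replicates, 5 only in replicate 2 and 2 only in replicate 1. A further 3 genes were among the strongest of 1 replicate without an optimal summit. Signal percentiles were also taken within each replicate's full list of 22720 or 24220 peaks. Across the 87 genes they had a Spearman correlation of 0.79 and a Pearson correlation of 0.36, as a description across genes that share their libraries. The median absolute difference was 0.425 percentile points. Most genes stood near the top of these long lists (medians 98.95 and 99.30 in replicates 1 and 2), which leaves little room for a difference. The 3 genes that differed most were F54E7.10 in rps-12 (rank 8925 in replicate 1, 363 in replicate 2), T08B2.13 in fars-1 (8039 and 1261) and ZC395.12 opposite gro-1 (1390 and 3649). These 3 had optimal signals of 136, 62.1 and 62.5, of which the latter 2 stood near the lowest of the list (60.8).

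Summits sat near the start of the gene. The median position was 18 bp before the annotated 5′ end (-18 bp, quartiles -37.5 and 20), and 81 of the 87 summits (93.1%) lay within 100 bp of it. That distance spans the whole of a gene under 100 bases. Within 50 bp of the 5′ end lay 57 of the 87 (65.5%). These were 34 of the 45 at genes under 100 bases and 23 of the 42 at longer ones. Of the 87, 58 (66.7%) lay upstream of the 5′ end, and 26 genes had an optimal summit inside the gene. In the strongest 2051 peaks of replicates 1 and 2 the medians were -10.5 and -21 bp. At tRNA genes the median was 33 bp after the 5′ end and at snRNA genes 15 bp after it.

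The window of 250 bp left few genes near its edge. An optimal summit lay within 100 bp of 84 genes, between 101 and 250 bp of 3, between 251 and 500 bp of 9 and over 500 bp away for 250. Just inside were F54E7.10 at 248 bp and Y76G2B.1 at 189 bp, and just outside were F28D1.13 at 308 bp and M163.14 at 311 bp.

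**Figure D2:**
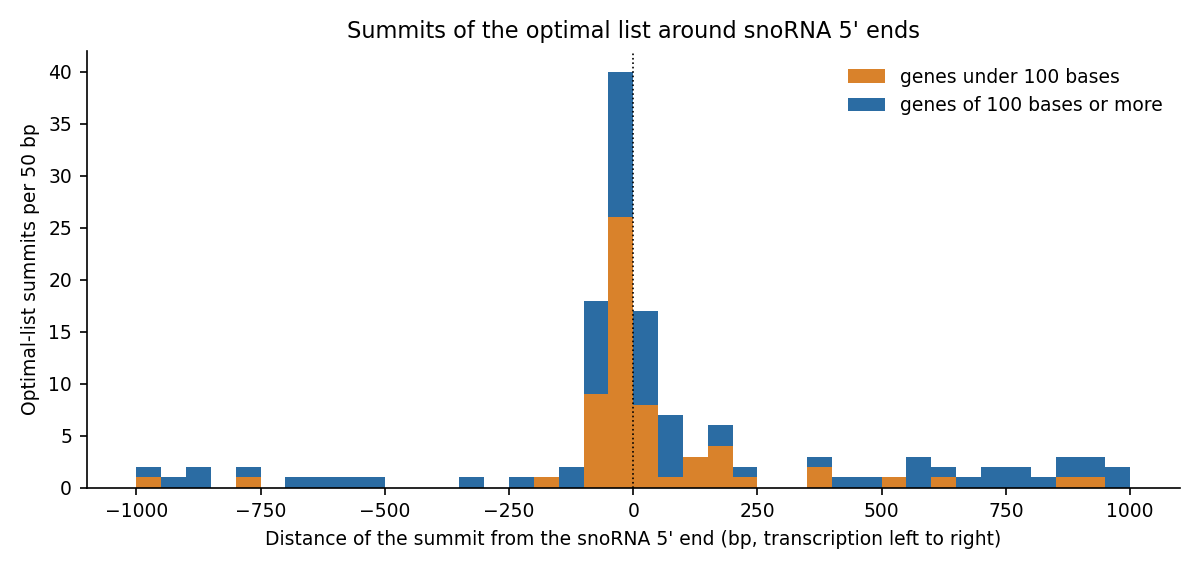
Number of optimal-list summits per 50 bp (vertical axis) by distance in bp from the 5′ end of each snoRNA gene, with the direction of transcription to the right; orange marks genes under 100 bases and blue the longer ones. Between -100 and -1 bp there were 58 summits and between 0 and 99 bp 24, while no 100 bp bin from -1000 to -101 bp held more than 3.

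Intronic and intergenic snoRNA genes carried summits at similar shares. The count was 41 of 169 intronic genes (24.3%, interval 18.01% to 31.4%) and 37 of 124 intergenic ones (29.8%, interval 22.0% to 38.7%). The intronic minus the intergenic share was -5.58 percentage points, and the replicates gave -8.37 and -4.18 (-6.28 ± 2.97, SD, n = 2). The intervals of both shares overlap. When genes with a protein-coding start within 500 bp were left out, the sign turned, to 2.27 points. Of the 53 genes over an exon 9 carried a summit (16.98%), with 6 in replicate 1 and 8 in replicate 2 among the strongest peaks.

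Within introns the strand of the host set groups farther apart. Genes transcribed against their host carried a summit in 11 of 27 cases (40.7%, interval 22.4% to 61.2%) and genes on the host's strand in 30 of 142 (21.1%, interval 14.7% to 28.8%). The difference was 21.0 percentage points in replicate 1 and 18.9 in replicate 2, but the intervals overlap. The gap was not the same in all groups, given here as opposite strand, then same strand. Under 100 bases the counts were 8 of 11 and 15 of 41, and at longer genes 3 of 16 and 15 of 101. With the spaced pair upstream they were 4 of 7 and 10 of 10, and with A or B box letters 4 of 9 and 12 of 21. The order was thus reversed there, whereas with neither it was kept (3 of 11 and 8 of 111). The highest of the opposite-strand genes were B0334.12 in twk-5, a potassium channel gene (236; ranks 58 and 36), C04G6.12 in mpk-2, a MAP kinase gene (220; ranks 31 and 107), and C07A9.14 in ncx-7, a sodium-calcium exchanger gene (214; ranks 298 and 24). C07A9.14 ranked far lower in replicate 1 than in replicate 2, although it was among the strongest 2051 in both.

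In hosts that hold several snoRNA genes, these genes carried a summit about as often as all genes did (5.99%). In 16 hosts with 2 or more intronic snoRNA genes, 2 of 36 genes (5.56%, interval 0.680% to 18.7%) carried one, against 39 of 133 (29.3%, interval 21.8% to 37.8%) that were alone in their host. nol-56, which encodes a core protein of C/D box snoRNA particles, held 4 snoRNA genes and none had a summit. The same was true of the 3 in rpl-6 and the 3 in top-2, a topoisomerase gene, where K12D12.6, K12D12.7 and K12D12.8 form the only cluster of 3 snoRNA genes within 250 bp of each other. Of 19 genes in introns of ribosomal protein genes only F54E7.10 in rps-12 carried one, and its summit was 248 bp upstream. That share, 5.26%, was likewise near that of all genes. These host groupings were made after the values were seen, and the intervals count genes of 1 host as independent.

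No snoRNA gene lay within 250 bp of a tRNA, snRNA or rRNA gene. The shortest distance to a tRNA gene was 324 bp and to a snRNA gene 297 bp. Measured from the summits instead, 0 of the 87 genes had their highest summit within 250 bp of a tRNA gene, and the nearest was that of C16D9.10 at 415 bp. At 1 gene, smy-2 (84.1), the summit lay 240 bp from a snRNA gene, and at none within 250 bp of an rRNA gene.

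On X, 2 of 33 snoRNA genes (6.06%, interval 0.743% to 20.2%) carried a summit, and on the autosomes 85 of 313 (27.2%, interval 22.3% to 32.4%). The share on X was near that of all genes on the 6 chromosomes (5.99%). Genome tiles carried one at 0.750% on X and 1.32% on the autosomes. The genes on X were C53B7.8 (chrX:6867938-6868008), with an optimal signal of 174 and ranks of 263 and 100, and T21F2.3 (chrX:16721943-16722113), with 107 and ranks of 228 and 1436. The strongest 2051 peaks gave 3 genes on X in replicate 1 and 2 in replicate 2.

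By box letters, 15 genes were C/D-like (TGATGA starting in the first 20 bases and CTGA in the last 20), 75 were H/ACA-like (ACA followed by 2 to 4 bases at the 3′ end) and 256 met neither rule, which is strict. A summit lay at 9 of 15 C/D-like genes (60%, interval 32.3% to 83.7%) and at 16 of 75 H/ACA-like genes (21.3%, interval 12.7% to 32.3%). Each replicate gave 9 C/D-like genes, and they gave 14 and 17 H/ACA-like ones. The intervals of both classes only just overlap.

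Length also separated the genes, with intervals that do not overlap, in a grouping made after the values were seen. Of 93 genes under 100 bases 45 carried a summit (48.4%, interval 37.9% to 59.0%), and of 253 longer ones 42 did (16.6%, interval 12.2% to 21.8%). All 45 short genes were among the strongest 2051 of both replicates, as were 35 of the 42 longer ones. The median signal was 199 at the short genes and 133 at the longer ones. Within the short genes the share was 14 of 19 up to 70 bases and 26 of 37 from 71 to 80 bases, but 3 of 17 from 82 to 90 bases. Length and class overlap: 13 of 15 C/D-like but only 3 of 75 H/ACA-like genes were under 100 bases. Of these short genes 8 of 13 and 2 of 3 carried a summit, and of the longer ones 1 of 2 and 14 of 72. Class and length cannot be told apart on so few genes.

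**Figure D3:**
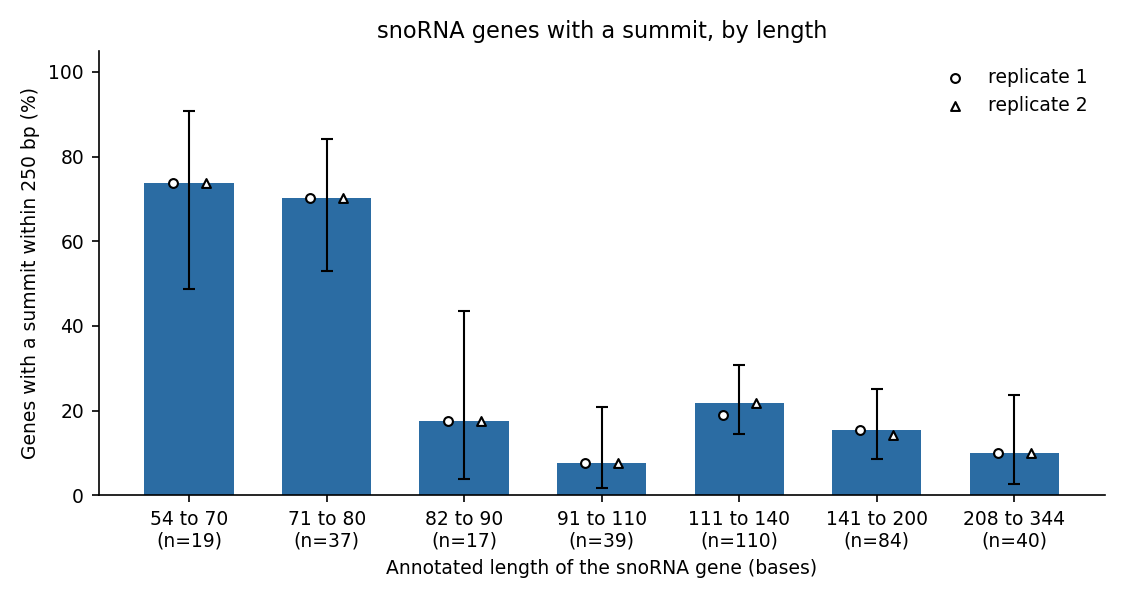
Share of snoRNA genes (%) with an optimal-list summit within 250 bp by annotated gene length in bases; bars with exact 95% intervals, circles and triangles the strongest 2051 peaks of replicates 1 and 2. The bars stand at 73.7% for 54 to 70 bases and 70.3% for 71 to 80 bases, and at 7.69% to 21.8% for the longer bins.

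A run of T after the gene, where RNA polymerase III ends its transcripts, went with the summits. TTTT lay within 20 bases after the 3′ end of 145 snoRNA genes, of which 59 carried a summit (40.7%, interval 32.6% to 49.2%), beside 28 of 201 without it (13.9%, interval 9.46% to 19.5%). The difference was 27.1 percentage points in replicate 1 and 28.4 in replicate 2. TTTT follows 41.9% of snoRNA genes, 98.4% of tRNA genes, 27.9% of snRNA genes, 32.6% of miRNA genes and 40.3% of protein-coding genes. The share at snoRNA genes as a whole was thus close to that at protein-coding genes. Of all 20-base windows of the genome 25.8% hold it. B box letters, searched on both strands within the gene and 50 bp around it, gave 30 of 60 genes with a summit (50%) and 57 of 286 without the letters (19.9%). Of windows of 230 bases in the genome 8.17% hold them, on either strand. Inside the gene alone they gave 3 of 22 genes, so the letters that went with a summit lay mostly outside it.

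At genes with a summit those letters mostly stood at a fixed place before the gene. The upstream letters described from here on were chosen after comparing short words upstream of snoRNA genes with and without a summit, so their counts describe these genes and are no test. On the sense strand in the 120 bases before the gene, B box letters were present at 24 of the 87 genes with a summit and at 9 of the 259 without. At the 24 genes they began at a median of -14 bp (quartiles -16.25 and -12), and at the 9 at -17 bp (quartiles -46 and -15). A box letters were present at 19 of 87 and 14 of 259, and at the 19 they began at a median of -58 bp. At the 14 without a summit the A box letters were more scattered, with a median of -73 bp (quartiles -93.5 and -58.5). On the other strand of the same windows, 1 gene with a summit held B box letters and 4 held A box letters. Among genes without a summit these counts were 4 and 9. Where both boxes preceded a gene with a summit, at 11 genes, they began 43 to 52 bases apart, with a median of 44.

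The spaced pair stood at a fixed place too. It preceded 26 of the 87 genes with a summit and 8 of the 259 without, at medians of -61.5 and -62.5 bp, and it occurred on the other strand of none. Of all 120-base windows of the genome 2.14% hold the B box letters, 1.78% the A box letters and 0.0571% the spaced pair, on 1 strand. No snoRNA gene held both the pair and an A or B box upstream.

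**Figure D4:**
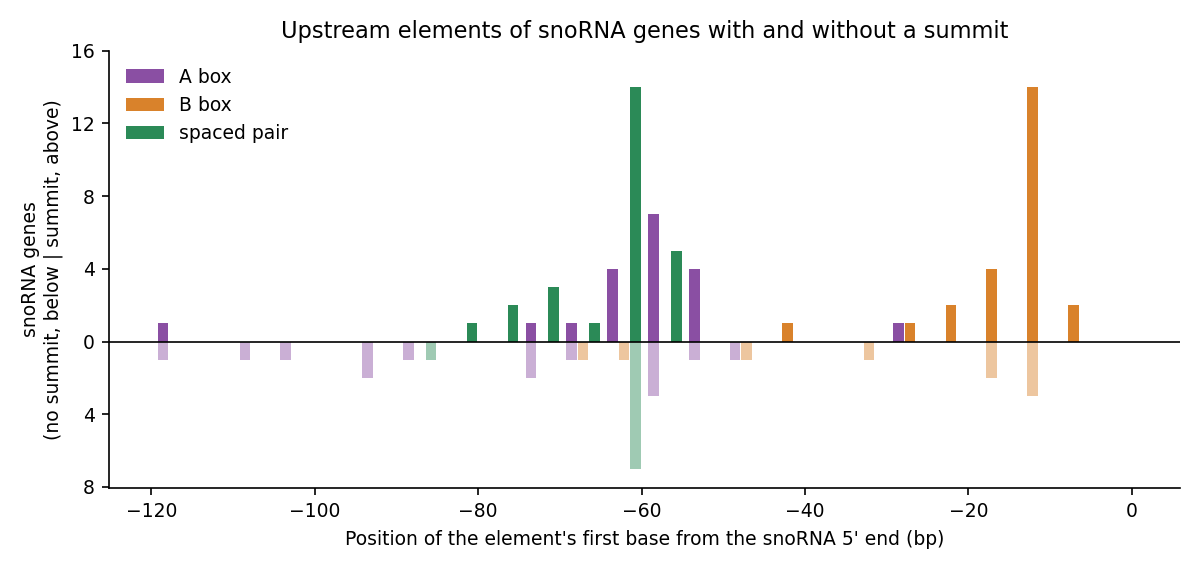
Number of snoRNA genes (vertical axis) by the position in bp of the first base of an upstream element before the 5′ end; bars above 0 are genes with an optimal-list summit, paler bars below 0 genes without. Among genes with a summit the B box begins at a median of -14 bp, the A box at -58 bp and the spaced pair at -61.5 bp.

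Together the elements sorted most genes with a summit from those without. With A or B box letters upstream 32 of 53 genes carried a summit (60.4%, interval 46.0% to 73.6%), with the spaced pair 26 of 34 (76.5%, interval 58.8% to 89.2%) and with none of them 29 of 259 (11.2%, interval 7.63% to 15.7%). Both replicates gave 32 and 26 for the former groups, and 26 and 28 for the last. Among genes under 100 bases the counts were 22 of 23, 15 of 17 and 8 of 53. Among longer genes they were 10 of 30, 11 of 17 and 21 of 206.

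Within each location the genes with an element stood above those with neither, against the host's strand on few genes. On the host's strand, all 10 intronic genes with the spaced pair and 12 of 21 with A or B box letters carried a summit, and 8 of 111 with neither did. Outside protein-coding genes the counts were 12 of 17 with the pair, 12 of 17 with A or B box letters and 13 of 90 with neither, and against the host's strand they were 4 of 7, 4 of 9 and 3 of 11. The short gene with A or B box letters and no optimal summit was C07H6.10, which had a pooled signal of 30.4. The strong summits of K02C4.8, ZK265.10, B0334.12 and H09I01.2 were at genes with none of these letters upstream, which says only that the letters are not in that window.

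**Figure D5:**
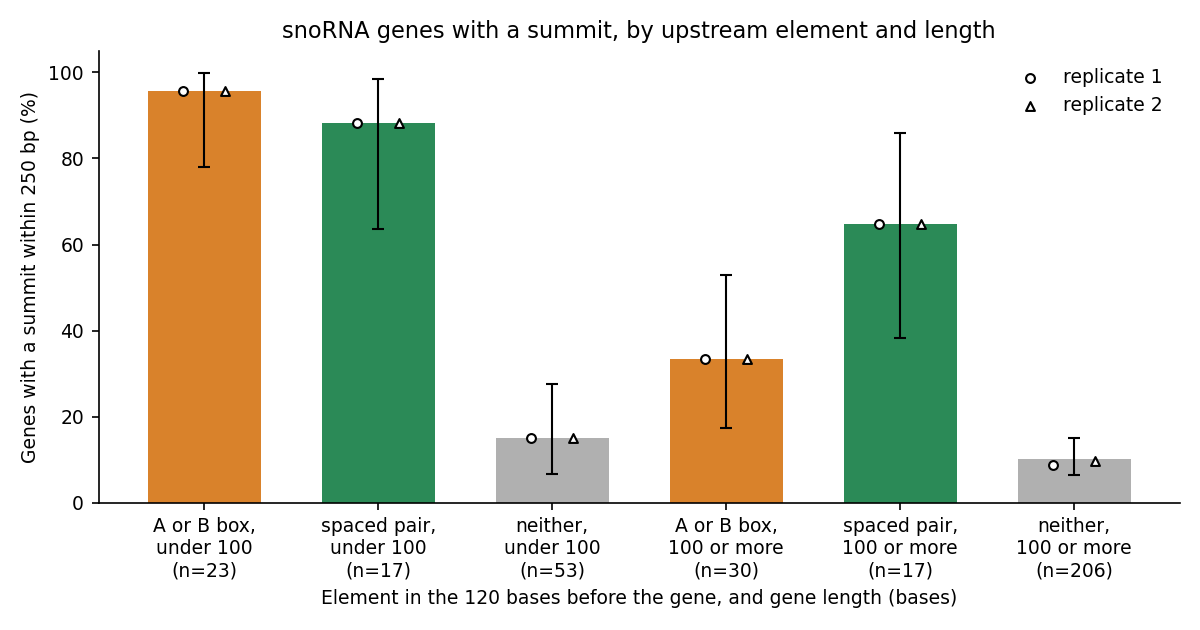
Share of snoRNA genes (%) with an optimal-list summit within 250 bp by upstream element and by gene length (under 100 bases, or 100 and more); bars with exact 95% intervals, circles and triangles the strongest 2051 peaks of replicates 1 and 2. Short genes stand at 95.7% with an A or B box, 88.2% with the spaced pair and 15.1% with neither.

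The summit lay close to the B box and downstream of the A box and the pair. These offsets follow in part from the fixed places of the letters, since summits lay near the 5′ end with or without them. Relative to the first base of the B box the summit was at a median of -11.5 bp (quartiles -20.25 and 19.25, 24 genes), and in 20 of the 24 it was within 50 bp. In tRNA genes the same letters occur inside the gene in 587 of 612, and there the summit stood at a median of -22 bp from them (quartiles -63 and 26, 410 genes). Relative to the first base of the A box the summit was at 30 bp (quartiles 6.5 and 42.5, 19 genes). Relative to the first base of the spaced pair it was at 51.5 bp (quartiles 39.75 and 77.5, 26 genes). From the gene's 5′ end the median was -12.5 bp with the pair, -25.5 bp with A or B box letters and -17 bp with neither.

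The same pair was then looked up before snRNA genes, which were not among the genes used to choose it. Their values are not wholly separate from that choice. The summit of smy-2, a snoRNA gene with the pair, lay 240 bp from a snRNA gene and so counts for both. The pair preceded 33 of 129 snRNA genes, of which 26 carried an optimal summit (78.8%, interval 61.1% to 91.0%). Of the 96 others 25 did (26.0%, interval 17.6% to 36.0%). The 129 include 30 spliced leader RNA genes (named sls), whose RNA supplies the leader joined onto many worm mRNAs, and 8 of their 9 with the pair carried a summit beside 6 of 21 without. Among the other snRNA genes the counts were 18 of 24 and 19 of 75. For snRNA genes as a whole the interval with the pair lay above the one without it. These intervals count genes as independent, although neighbouring genes can share a summit, and distinct summits were not counted. The look-up was not planned, and its counts are a description.

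Summits at the genes for the proteins of snoRNA particles were of lower signal than most at snoRNA genes. An optimal summit lay within 500 bp of the 5′ end of 3 of the 8, beside 4.47% of all protein-coding genes. These were Y48A6B.3, an NHP2 protein of H/ACA particles (106), nol-58 (69.7) and fib-1, the methyltransferase fibrillarin (67.5). The summits of all 3 were 167 to 313 bp from the 5′ end, and only that of Y48A6B.3 was above the median of the list. The others, nol-56 and snu-13 of C/D particles and dkc-1, garr-1 and nola-3 of H/ACA particles, had none, and nol-56 had a pooled signal of 53.6.

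Among snoRNA genes with no optimal summit the highest pooled signals were at R166.7 in mnk-1 (57.6; ranks 2609 and 2484 in the replicates), Y59E1B.14 on X (56.4; 1768 and 2749) and C26C6.13 (55.4; 5131 and 2827). All 3 are H/ACA-like, and all stood just under the lowest signal of the optimal list.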

How the data were processed

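The authors' deposited lists on ce11 were used: peaks of each replicate, of the pooled replicates and the optimal list thresholded by the irreproducible discovery rate. Each peak's signal value and summit are the authors' own, and signal was compared only within a list. The sources used here do not name the aligner or the peak caller. All 2051 optimal peaks were the 2051 highest of the pooled list. Lists on ce10 were not used, since the annotation is on ce11 and nothing was converted. Gene models came from Ensembl release 115 and bases from the RefSeq copy of the same assembly; the 8 snoRNA particle genes were matched by symbol or RefSeq locus tag. Coordinates are 1-based. A replicate's value is from as many of its strongest peaks as the optimal list holds. Shares carry 95% Clopper-Pearson intervals, and no p-value was computed. Scripts used Python 3.11.15 with numpy 2.4.6, pandas 2.3.3, scipy 1.17.1 and matplotlib 3.10.9, and the summit assignment was tested on simulated peaks. Named genes are the 10 highest signals, the highest 5 intergenic, 5 intronic and 3 antisense intronic genes, those on X with a summit, the 3 highest without an optimal summit, the 3 with the largest replicate difference, 2 on each side of the window's edge, clusters of 3 or more and the particle genes; others were named after their values were seen. Genes and lists were chosen with earlier results of these data known. The labels call the replicates biological but do not say whether they were separate cultures. What their spread covers is therefore not known.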

Additional observations from a re-analysis of the deposited data

How the results depend on the processing

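Of 136 recomputed values 128 kept their size within 1.5 times for counts or within the replicate SD for other values. Some of the 128 could not have moved, so this total is no measure of robustness. The 2051 strongest pooled peaks are the optimal list itself. No snoRNA gene lies within 250 bp of a tRNA gene, so that count was 0 at every setting. The intronic minus intergenic share turned from -5.58 to 2.27 percentage points without genes near a protein-coding 5′ end, and was -8.71 with introns of the longest same-strand transcript; it ranged from -8.37 to -4.18 over the replicates. The median signal percentile was 86.4 in the 1025 strongest optimal peaks, by construction of a shorter list, and 89.3 to 91.9 over the replicates. The median summit position was -21 to -10.5 bp over the replicates. The snoRNA particle genes with a summit fell from 3 to 1 among the 1025 strongest peaks and to 1 within 250 bp, and were 2 to 3 over the replicates. The count of genes with a summit was 84 to 86 over the replicates, 84 within 100 bp and 96 within 500 bp. Leaving out neighbours of tRNA, snRNA or rRNA genes removed no gene. With only 60 upstream bases, a setting added after seeing the data as were all those for length, run of T and upstream letters, the spaced pair with a summit was counted at 5 genes in place of 26, since it mostly begins farther off. No paired analysis was possible because the 2 replicates form 1 group. Read depth is unknown, so an absent summit says only that none passed the authors' threshold.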

Other observations

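The upstream letters were rarely at a summit away from small RNA genes. The spaced pair occurs at 1102 places in the genome, counted on both strands, and 74 of these had an optimal summit within 250 bp. Within 250 bp of a snoRNA gene 27 of 39 did (69.2%), within 250 bp of a snRNA or spliced leader RNA gene 26 of 32 (81.2%), and over 250 bp from any snoRNA, tRNA, snRNA or spliced leader RNA gene 19 of 1025 (1.85%, interval 1.12% to 2.88%), beside 1.22% of genome tiles. An A box followed by a B box 20 to 70 bases later occurs at 1423 places, with a summit at 12 of 18 near a snoRNA gene, at 80 of 113 near a tRNA gene and at 48 of 1291 (3.72%, interval 2.75% to 4.90%) away from all 4 classes. That last interval lies above the 1.22% of genome tiles. Why the letters go with a summit near these genes was not tested.

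A tRNA gene lay within 1000 bp of 6 snoRNA genes, and 3 of these carried a summit: ZK994.7, C16D9.10 and T19C4.11. Their summits were 32, 18 and 49 bp before the snoRNA 5′ end. Of the 8 snoRNA genes with the spaced pair and no optimal summit, 2 had a pooled summit, with signals of 42.6 and 36.2.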
